A study of Oryctolagus cuniculus with 9 samples.

Results

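Matricellular proteins are secreted into the matrix, where they act on cell-surface receptors and growth factors rather than as structural fibres. The genes described here are 9 of the 19291 in the deposited tables. They were chosen by symbol from a list of 10, which holds the CCN family (CYR61, CTGF, NOV, WISP1 and WISP2), the thrombospondins THBS1, THBS2 and THBS3, and SPARC and TNC. WISP2 was not found by symbol, so it was not analysed here. CYR61 and THBS1 were picked out because earlier results of these data showed CYR61 lower and THBS1 higher with estradiol. Their differences between groups are therefore a description with no test. The other members were listed by symbol and are tested.

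CCN proteins bind integrins and heparan sulfate proteoglycans. CYR61, also called CCN1, is an immediate early gene that serum and growth factors induce, and CYR61 and CTGF are both widely used readouts of the transcriptional coactivators YAP and TAZ. Thrombospondin 1 binds CD36, CD47 and integrins, can activate latent TGF-β and inhibits the growth of new vessels. In smooth muscle, both CYR61 and THBS1 are known from injured and remodelling vessel walls.

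The study treated HA-VSMC, a cultured line labelled as rabbit (Oryctolagus cuniculus), to ask how estrogen takes part in adenomyosis. mRNA profiles were deposited for 3 control libraries, 3 with β-estradiol at 50 nM and 3 with β-estradiol at 250 nM, and the protocol gives 48 h of treatment. The treatment protocol itself names only the 250 nM dose, and the kit given for making the mRNA libraries is one for small RNA. A line of this name is commonly a human aortic smooth muscle line, whereas the tables carry rabbit Ensembl identifiers. The species could not be settled from the tables, so every level, and every gene at 0 or missing, is as counted on rabbit genes. No genotype is stated, and whether controls received the vehicle is not said. The control samples carry the treatment tag estrogen with the concentration WT and were taken as controls from their titles. All libraries come from 1 line and nothing says that replicates are separate cultures, so the p-values measure a spread that may be technical.

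Each level is a CPM value, a count scaled to library size with TMM factors, or an FPKM value, which also divides by transcript length. Differences are log2 fold changes ± SE from 1 edgeR fit to all 9 libraries. Libraries held 54718407 to 72274464 count units, at about 4 units per fragment, and 12324 genes had enough counts to be tested. A gene passed, or was called, where its p adjusted over all of these was under 0.05. Of the smooth muscle markers ACTA2 averaged 1286 FPKM, SMTN 27.8 FPKM and MYH11 5.18 FPKM. MYLK, LMOD1 and MYOCD lay under 1 FPKM, DES was at 0 in every library, and TAGLN and CNN1 were not found by symbol. The summed level of those 7 smooth muscle markers was 1326 to 1411 FPKM in controls, 1204 to 1365 FPKM at 50 nM and 1235 to 1323 FPKM at 250 nM. The 6 fibroblast markers, mainly COL1A1, summed to 1997 to 2092 FPKM in controls, 2185 to 2278 FPKM at 50 nM and 2223 to 2331 FPKM at 250 nM. COL1A1 alone averaged 1933 FPKM in controls, 2113 FPKM at 50 nM and 2183 FPKM at 250 nM. DCN, the next highest of them, averaged 76.2, 77.2 and 77 FPKM in the same groups. The 2 sums thus follow mainly ACTA2 and COL1A1, and the higher fibroblast sum was not seen in DCN. No endothelial or epithelial marker reached a mean of 1 FPKM, and of the leukocyte markers only LAPTM5 did, with PTPRC, CD14, CD3E and CSF1R under 0.1 FPKM. In bulk RNA fewer cells of a type and less RNA per cell cannot be told apart, and the part of these marker shifts in the results below was not tested.

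The members spanned a wide range of abundance. Per length, FPKM values put SPARC first at a mean of 6239 FPKM over the 9 libraries, the gene ranked 8 of 19291. CTGF followed at 1876 FPKM (rank 26), CYR61 at 687 FPKM (rank 95), THBS1 at 315 FPKM (rank 232) and THBS2 at 84.3 FPKM (rank 876). WISP1, TNC and THBS3 were scarce, at 5.07, 4.33 and 1.32 FPKM. NOV, which encodes CCN3, had 4 units, or about 1 fragment, in control replicate 3 and 0 in the other 8 libraries. A count of 0 allows up to 3 fragments in a library, or 0.166 to 0.219 CPM before TMM scaling, a limit that covers counting error only. NOV was not tested. The other 8 members passed the filter on low counts.

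CYR61 was lower at both estradiol concentrations, and lowest at 50 nM. Its level was 1616, 1531 and 1740 CPM in the controls. At 50 nM it was 981, 977 and 979 CPM, and at 250 nM it was 1380, 1320 and 1266 CPM. No library of one group reached the range of another, so the order was control, then 250 nM, then 50 nM. The 50 nM libraries differed from each other by a coefficient of variation of 0.205%, less than the 0.865% that counting error alone gives for 13356 fragments, the fewest in any library. That spread is therefore no guide to the error of the 50 nM mean, and the SE below comes from the fit to all groups.

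The log2 fold change of CYR61 was -0.73 ± 0.05 for 50 nM against control, a level 1.66-fold lower. At 250 nM against control it was -0.30 ± 0.05, a level 1.23-fold lower. Between 250 nM and 50 nM it was 0.43 ± 0.05, so the higher concentration lay nearer to the control. Among all genes tested CYR61 ranked 185 from the lowest fold change at 50 nM and 762 from the lowest at 250 nM. Leaving out any 1 library kept the value between -0.78 and -0.68 at 50 nM and between -0.34 and -0.25 at 250 nM.

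**Figure D1:**
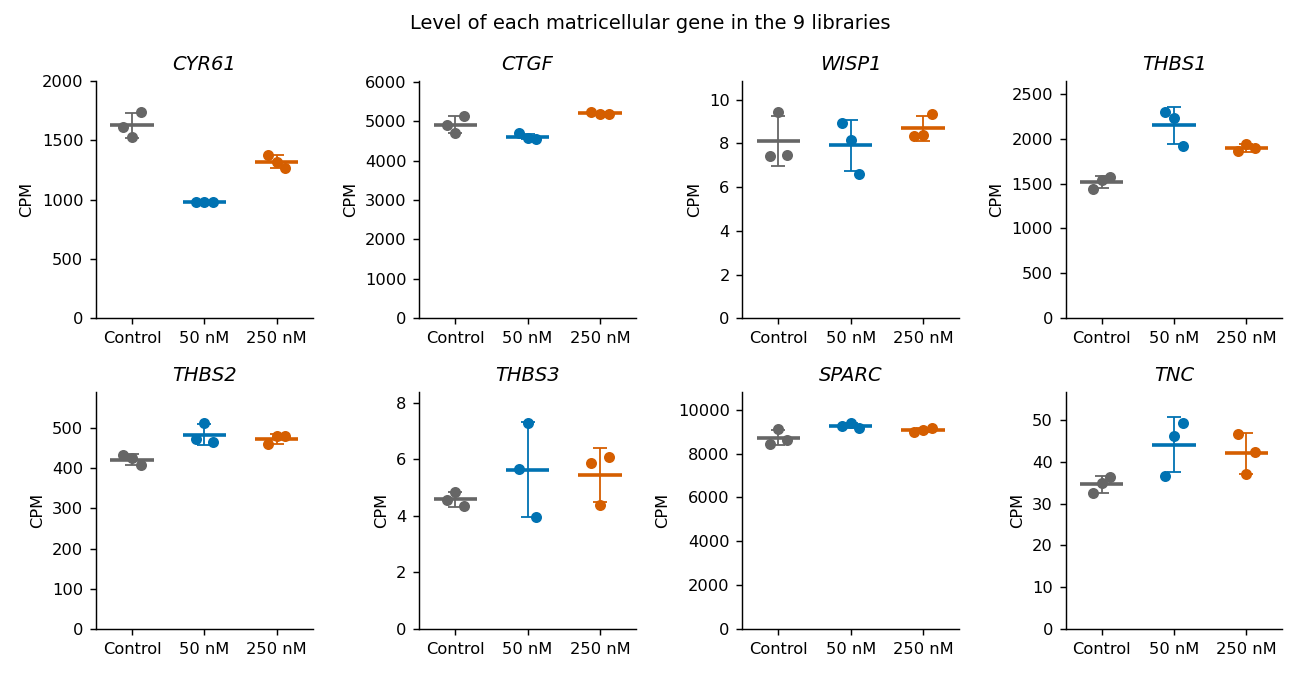
Level in CPM of the 8 members that could be tested, in the control, 50 nM and 250 nM groups. Points are libraries, the thick line is the mean and the bar is 1 SD over 3 libraries, and each axis starts at 0. CYR61 is lowest at 50 nM (977 to 981 CPM) and highest in the controls (1531 to 1740 CPM), while THBS1 is lowest in the controls (1438 to 1572 CPM).

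CTGF, or CCN2, a fibrosis-linked relative of CYR61 induced by TGF-β, did not pass in any comparison. It had 4904, 4691 and 5124 CPM in controls, 4692, 4584 and 4555 CPM at 50 nM, and 5235, 5196 and 5180 CPM at 250 nM. The 50 nM range overlapped the lower end of the controls, while the 250 nM libraries lay above both other groups. The difference between 50 nM and control was -0.09 ± 0.04 on the log2 scale (95% interval before adjustment -0.18 to 0.00, edgeR adjusted p = 0.333). Between 250 nM and control it was 0.08 ± 0.04 (interval -0.01 to 0.18, edgeR adjusted p = 0.626). The 250 nM libraries exceeded the 50 nM libraries by 0.17 ± 0.04 (interval 0.08 to 0.27, edgeR adjusted p = 0.167). That difference passed with DESeq2 (adjusted p = 0.0268) and in none of the other 20 settings, whose adjusted p reached 0.695.

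WISP1, or CCN4, first described as a gene induced by Wnt1, had 7.42, 9.44 and 7.49 CPM in controls, 8.94, 8.16 and 6.62 CPM at 50 nM and 8.36, 8.37 and 9.36 CPM at 250 nM. The groups overlapped throughout. With 90 to 168 fragments per library, counting error alone was 7.72% to 10.5% of its level. Its log2 fold change was -0.04 ± 0.13 for 50 nM against control (interval -0.32 to 0.25, edgeR adjusted p = 0.946) and 0.10 ± 0.13 for 250 nM against control (interval -0.18 to 0.38, edgeR adjusted p = 0.907).

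THBS1 was higher at both concentrations. It had 1438, 1535 and 1572 CPM in controls, 2298, 2228 and 1917 CPM at 50 nM, and 1860, 1940 and 1891 CPM at 250 nM. Every estradiol library lay above every control. The 2 concentrations overlapped, because 50 nM replicate 3, at 1917 CPM, fell within the 250 nM range. The log2 fold change was 0.50 ± 0.06 for 50 nM against control, a level 1.42-fold higher, and 0.32 ± 0.06 for 250 nM against control, a level 1.25-fold higher. Between 250 nM and 50 nM it was -0.18 ± 0.06, which was -0.25 without 50 nM replicate 3 and -0.13 without 50 nM replicate 1. THBS1 ranked 477 from the highest fold change of all genes tested at 50 nM and 655 from the highest at 250 nM.

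THBS2 encodes the thrombospondin closest to THBS1, which also inhibits vessel growth but lacks the sequence that activates TGF-β. It had 432, 425 and 407 CPM in controls, 473, 513 and 464 CPM at 50 nM, and 459, 481 and 480 CPM at 250 nM. All 6 estradiol libraries lay above all 3 controls. The log2 fold change was 0.20 ± 0.05 for 50 nM against control (interval 0.08 to 0.31, edgeR adjusted p = 0.0589) and 0.17 ± 0.05 for 250 nM against control (interval 0.05 to 0.28, edgeR adjusted p = 0.315), so neither passed. At 50 nM it did pass in 6 of 21 other settings, among them DESeq2 (adjusted p = 0.00734) and the fit without 50 nM replicate 3 (adjusted p = 0.0305), and the adjusted p over all of them reached 0.237. THBS1 exceeded THBS2 in size of difference at 50 nM, but the difference between the 2 genes was not tested, because THBS1 was chosen for its value.

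THBS3, a thrombospondin known from skeletal tissue, ranged from 4.34 to 4.86 CPM in controls, from 3.96 to 7.30 CPM at 50 nM and from 4.37 to 6.10 CPM at 250 nM. These ranges overlapped, and 54 to 116 fragments per library left a counting error of 9.28% to 13.6%. The log2 fold change was 0.30 ± 0.19 for 50 nM against control (interval -0.10 to 0.70, edgeR adjusted p = 0.50) and 0.25 ± 0.19 for 250 nM against control (interval -0.15 to 0.65, edgeR adjusted p = 0.808). The coefficient of variation between libraries was 29.6% at 50 nM and 17.2% at 250 nM, above that counting error. The first interval includes both 0 and the 0.50 of THBS1, so a difference of that size is not excluded for THBS3.

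SPARC, a collagen-binding glycoprotein also called osteonectin, was the most abundant member. It had 8464, 9144 and 8602 CPM in controls, 9256, 9415 and 9178 CPM at 50 nM, and 9000, 9097 and 9186 CPM at 250 nM. The 50 nM libraries lay just above the highest control, and the 250 nM libraries overlapped the controls. Its log2 fold change was 0.09 ± 0.04 for 50 nM against control (interval 0.00 to 0.17, edgeR adjusted p = 0.31) and 0.06 ± 0.04 for 250 nM against control (interval -0.03 to 0.14, edgeR adjusted p = 0.783).

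TNC, which encodes tenascin C, a matrix protein of wounds and developing tissue, had 32.5, 34.9 and 36.4 CPM in controls. It had 36.7, 46.3 and 49.4 CPM at 50 nM and 46.8, 37.0 and 42.4 CPM at 250 nM. Each estradiol library was above each control, by a narrow margin for 50 nM replicate 1 and 250 nM replicate 2. The log2 fold change was 0.35 ± 0.10 for 50 nM against control (interval 0.13 to 0.57, edgeR adjusted p = 0.0883) and 0.28 ± 0.10 for 250 nM against control (interval 0.06 to 0.50, edgeR adjusted p = 0.405). Neither passed. At 50 nM TNC passed with DESeq2 (adjusted p = 0.0239), with no filter (adjusted p = 0.0415) and without 50 nM replicate 1 (0.47, adjusted p = 0.0246), and over all 21 settings the adjusted p reached 0.344.

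**Figure D2:**
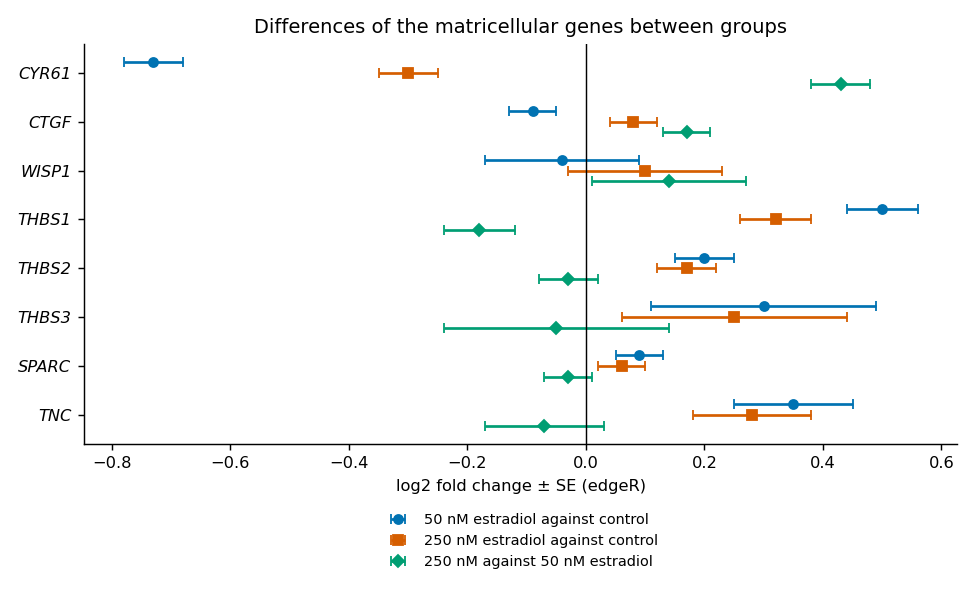
Log2 fold change ± SE from the edgeR fit for the 8 members, in the 3 comparisons. CYR61 lies at -0.73 and -0.30 against control and THBS1 at 0.50 and 0.32, while CTGF, SPARC and WISP1 lie between -0.09 and 0.10 in both comparisons with control.

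Of the 6 tested members that were not chosen for their values, 0 passed at 50 nM, where 3.25% of all genes tested did, 0 passed at 250 nM, where 0.308% did, and 0 passed for 250 nM against 50 nM, where 0.325% did (edgeR adjusted p under 0.05). Their smallest adjusted p was 0.0589, 0.315 and 0.167 in these comparisons. At an unadjusted p under 0.05 edgeR counted 3 at 50 nM (THBS2, SPARC and TNC), 2 at 250 nM (THBS2 and TNC) and 1, CTGF, between the concentrations. Of all genes tested, 15.6%, 8.67% and 5.68% lay under that value in these comparisons. DESeq2 called 2 (THBS2 and TNC), 0 and 1 (CTGF) after adjustment, beside 6.31%, 1.14% and 0.804% of all genes to which it gave an adjusted p. In each comparison limma-voom called 0 of the 6, as did limma on log2(FPKM + 1). Over all genes these called 376, 36 and 40 and 308, 4 and 23. By range alone, THBS2, SPARC and TNC did not overlap between 50 nM and control, as did 19% of all genes tested. CTGF, THBS2 and TNC did not overlap between 250 nM and control, as did 15.5% of all genes, and CTGF did not overlap between 250 nM and 50 nM, as did 11.5%. With 6 genes, these shares are a description.

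Ratios between members within a library do not depend on how libraries are scaled to each other. The FPKM ratio of CYR61 to THBS1 was 3.44, 3.06 and 3.39 in controls, 1.31, 1.35 and 1.57 at 50 nM, and 2.28, 2.09 and 2.05 at 250 nM. The 3 groups were separate, with CYR61 above THBS1 in all 9 libraries. Counts alone hide this, since THBS1 is the longer transcript: in controls CYR61 and THBS1 averaged 1629 ± 105 and 1515 ± 69.1 CPM (SD, n = 3) but 870 ± 61.8 and 264 ± 11.4 FPKM.

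The FPKM ratio of CYR61 to CTGF set the 2 CCN genes against each other. It was 0.451, 0.447 and 0.465 in controls, 0.286, 0.292 and 0.294 at 50 nM, and 0.361, 0.348 and 0.334 at 250 nM, again with no overlap. The FPKM ratio of THBS1 to THBS2 was 3.09, 3.36 and 3.59 in controls, 4.51, 4.03 and 3.84 at 50 nM and 3.76, 3.74 and 3.65 at 250 nM. Here the groups were separate too, but control replicate 3 (3.59) and 250 nM replicate 3 (3.65) were close. CYR61 and THBS1 enter these ratios and were chosen for their values, so the separation is no test.

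**Figure D3:**
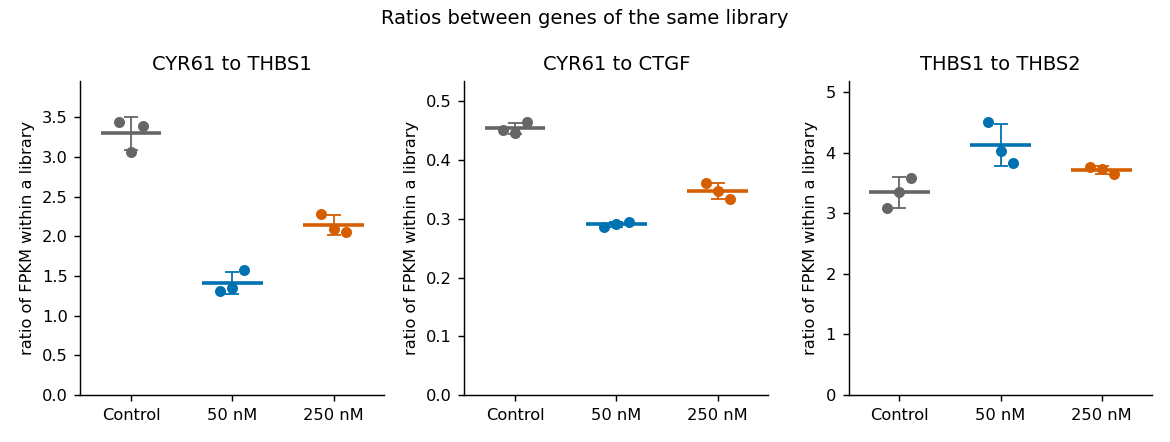
Ratio of FPKM values within each library for 3 pairs of members, in the control, 50 nM and 250 nM groups. Points are libraries, the thick line is the mean and the bar is 1 SD over 3 libraries. The ratio of CYR61 to THBS1 is 3.06 to 3.44 in controls, 1.31 to 1.57 at 50 nM and 2.05 to 2.28 at 250 nM.

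Other genes of the same biology were taken from 7 lists that were written with earlier results known, so their counts are descriptive (edgeR adjusted p under 0.05). Of 162 symbols 129 were tested. At 50 nM 11 rose and 5 fell, together 12.4% of the list genes, while 1.55% of all genes tested rose and 1.7% fell. The split moved with the setting: DESeq2 called 24 higher and 6 lower, the fit without 50 nM replicate 3 called 25 higher and 5 lower, and limma on log2(FPKM + 1) called 3 higher and 6 lower. At 250 nM 2 rose and 2 fell, together 3.1%, while 0.203% of all genes rose and 0.105% fell. Between the concentrations 4 were higher at 250 nM and 2 lower, together 4.65%, against 0.187% and 0.138% of all genes. Since earlier results were known when the lists were written, these shares are no independent evidence.

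Among 16 other matricellular genes tested, TGFBI, which encodes a matrix protein induced by TGF-β, rose at 50 nM (5517 ± 102 CPM against 4851 ± 134 CPM in controls, SD, n = 3). Its log2 fold change was 0.19 ± 0.04 (edgeR adjusted p = 0.0209), and it was the 1 gene of the list called. The list's median was 0.12 at 50 nM and 0.07 at 250 nM, beside -0.002 and -0.0047 over all genes tested. Of 18 receptors for CCN proteins and thrombospondins, SDC4, a heparan sulfate proteoglycan to which both families bind, rose at both concentrations. It had 30.1, 37.6 and 31.3 CPM in controls, 65.4, 66.9 and 54.8 CPM at 50 nM and 51.7, 49.7 and 57.9 CPM at 250 nM, so every estradiol library lay above every control. Its log2 fold change was 0.92 ± 0.10 for 50 nM against control (edgeR adjusted p = 5.88e-05) and 0.69 ± 0.10 for 250 nM against control (edgeR adjusted p = 0.00492). The receptor list's median was 0.06 and 0.07. CD47 was not found by symbol, and CD36 had too few counts to be tested. The integrin subunits ITGAV and ITGB1, named after their values were seen, differed by 0.09 ± 0.08 and 0.13 ± 0.05 on the log2 scale at 50 nM, short of the threshold (edgeR adjusted p = 0.668 and 0.238). ITGB3 and ITGB8, named in the same way, did not pass either. ITGB3 differed by 0.26 ± 0.07 at 50 nM and 0.19 ± 0.07 at 250 nM (edgeR adjusted p = 0.0792 and 0.43). Every estradiol library of ITGB3 lay above every control. ITGB8 differed by -0.26 ± 0.07 at 250 nM (edgeR adjusted p = 0.218).

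CYR61 and CTGF are regulated by YAP and TAZ with TEAD factors, and CYR61 also by SRF and its MRTF cofactors. Of 24 such regulators MRTFA rose at 50 nM (188 ± 6.63 CPM against 156 ± 7.72 CPM in controls, log2 fold change 0.27 ± 0.06, edgeR adjusted p = 0.0133), the 1 call in that list, whose median was 0.02 at 50 nM and 0.05 at 250 nM. YAP1 (0.03 ± 0.06), WWTR1, which encodes TAZ (0.08 ± 0.05), and SRF (-0.19 ± 0.07) were named after their values were seen and did not pass at 50 nM, with edgeR adjusted p of 0.892, 0.539 and 0.197. Of 19 YAP/TAZ targets other than the members, the kinase gene NUAK2 and the tissue factor gene F3 rose at 50 nM, by 0.41 ± 0.06 and 0.45 ± 0.11 (edgeR adjusted p = 0.00186 and 0.0352). NUAK2 was 0.58 ± 0.06 lower at 250 nM than at 50 nM on the log2 scale (edgeR adjusted p = 0.000366). For 250 nM against control its log2 fold change was -0.17 ± 0.06, which did not pass (edgeR adjusted p = 0.417). ANKRD1 and AMOTL2, widely used targets named after their values were seen, had log2 fold changes of -0.10 ± 0.05 and 0.10 ± 0.08 at 50 nM, not past the threshold (edgeR adjusted p = 0.344 and 0.638). The list's median was 0.04 at 50 nM and 0.05 at 250 nM.

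Of 18 genes of latent TGF-β and its activation, the receptor gene TGFBR2 rose at 50 nM (1176 ± 109 CPM against 991 ± 17.5 CPM in controls, log2 fold change 0.25 ± 0.06, edgeR adjusted p = 0.0341). The list's median was 0.20 at 50 nM and 0.12 at 250 nM. SMAD7, an inhibitor of TGF-β signalling, passed for 250 nM against 50 nM, at 15.6 ± 1.72 CPM at 250 nM against 24.6 ± 1.65 CPM at 50 nM, with 19.8 ± 0.595 CPM in controls (log2 fold change -0.65 ± 0.09, edgeR adjusted p = 0.0018). Of 20 proteases and matrix partners, PLAU, which encodes the urokinase plasminogen activator, and the type I collagen genes COL1A1 and COL1A2 rose at 50 nM, by 0.34 ± 0.06, 0.18 ± 0.04 and 0.18 ± 0.04 on the log2 scale (edgeR adjusted p = 0.00493, 0.026 and 0.0159). COL1A1 also rose at 250 nM, to 8206 ± 227 CPM against 7067 ± 153 CPM in controls (log2 fold change 0.22 ± 0.04, edgeR adjusted p = 0.0401). That call was lost in 13 of 21 other settings, among them limma-voom (adjusted p = 0.0524), a filter of 5 CPM (0.0795) and counts divided by 4 (0.0608). COL1A1 made up most of the fibroblast marker sum given above, which was higher in both estradiol groups. The list's median was 0.16 at both concentrations.

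At 250 nM against control edgeR called 0 genes in the lists of other matricellular genes, YAP and SRF regulators, YAP/TAZ targets and TGF-β activation. At an unadjusted p under 0.05 the counts were 5 of 16, 2 of 24, 4 of 19 and 6 of 18, beside 8.67% of all genes tested, so the 2 of 24 regulators were near the share of all genes. DESeq2 called 0, 0, 1 and 2 after adjustment, beside 1.14% of all genes. At 50 nM the edgeR counts at an unadjusted p under 0.05 were 5 of 16, 5 of 24, 7 of 19 and 9 of 18 in these lists. Of these, 0, 2, 2 and 0 genes were lower than in controls. The counts were 12 of 20 for proteases and matrix partners (2 lower) and 3 of 18 for receptors (0 lower), beside 15.6% of all genes tested. For the same lists the counts at 250 nM were 9 of 20 (0 lower) and 4 of 18 (1 lower), beside 8.67%. The transcription factors and ligands described next counted 9 of 16 at 50 nM (5 lower) and 5 of 16 at 250 nM (3 lower).

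The last list holds 16 tested transcription factors and ligands tied to transcription of CYR61 or THBS1, and it includes MYC, a repressor of THBS1, and the estrogen receptors. At 50 nM 5 fell and 1 rose. The share called was 37.5% at 50 nM, 12.5% at 250 nM and 25% between the concentrations. Of all genes tested 3.25%, 0.308% and 0.325% were called. The list was written with earlier results known, so these shares are a description. The transcription factor gene EGR1, an immediate early gene like CYR61, had 275, 299 and 341 CPM in controls, 47.8, 45.9 and 30.9 CPM at 50 nM and 236, 243 and 170 CPM at 250 nM. Its log2 fold change was -2.87 ± 0.16 for 50 nM against control (edgeR adjusted p = 3.93e-08) and -0.50 ± 0.14 for 250 nM against control (edgeR adjusted p = 0.231). FOS, another immediate early gene, had 111, 96.9 and 125 CPM in controls, 42.0, 35.2 and 36.9 CPM at 50 nM and 80.6, 74.6 and 62.8 CPM at 250 nM. The log2 fold change of FOS at 50 nM was -1.55 ± 0.10 (edgeR adjusted p = 3.61e-07). EGR1 and FOS took the order of CYR61, with control highest and 50 nM lowest. ID1, which encodes an inhibitor of helix-loop-helix transcription factors and represses THBS1, rose at 50 nM (92.7 ± 15.5 CPM against 57.6 ± 11 CPM in controls, log2 fold change 0.69 ± 0.12, edgeR adjusted p = 0.00536). MYC had 74.8, 71.6 and 73.9 CPM at 50 nM, against 88.5, 102 and 88.2 CPM in controls, a log2 fold change of -0.34 ± 0.07 (edgeR adjusted p = 0.0108). At 250 nM MYC had 94.1, 105 and 98.7 CPM and did not pass against control (edgeR adjusted p = 0.766). The other genes that fell at 50 nM were the endothelin gene EDN1 (-0.50 ± 0.06) and, named after its values were seen, JUN (-0.23 ± 0.05), with edgeR adjusted p of 0.000325 and 0.0279. At 250 nM JUN was 0.10 ± 0.05 higher than in controls on the log2 scale and did not pass (edgeR adjusted p = 0.643). By fold change EDN1 took the order of CYR61, while JUN and MYC did not. At 250 nM FOS (-0.61 ± 0.10, edgeR adjusted p = 0.0146) and EDN1 (-0.35 ± 0.06, edgeR adjusted p = 0.0205) fell. EGR1, FOS, JUN and MYC were higher at 250 nM than at 50 nM, by 2.38 ± 0.15, 0.93 ± 0.10, 0.34 ± 0.05 and 0.44 ± 0.07 on the log2 scale (edgeR adjusted p = 1.4e-06, 0.000366, 0.00933 and 0.00567). The list's median was 0.00 at 50 nM and 0.06 at 250 nM. The estrogen receptor genes ESR1 and ESR2, named after their values were seen, lay between 0.12 and 0.323 FPKM and between 0.158 and 0.295 FPKM over the 9 libraries.

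Some of these calls rested on single libraries. At 50 nM, without control replicates 1, 2 and 3 the calls lost had adjusted p of up to 0.115, 0.082 and 0.145, and without 50 nM replicates 1, 2 and 3 of up to 0.0886, 0.132 and 0.0899. They were those of F3, TGFBR2, COL1A1, TGFBI, MRTFA and COL1A2. The TGFBR2 call was also lost without any 1 of the 250 nM libraries and the F3 call without 250 nM replicate 3, where the adjusted p of these was up to 0.0593. At 250 nM COL1A1, FOS, EDN1 and SDC4 lost the call without at least 1 library, with adjusted p of up to 0.123, 0.108 and 0.145 when control replicate 1, 2 or 3 was left out, up to 0.182, 0.236 and 0.104 when 250 nM replicate 1, 2 or 3 was, and 0.0715 for COL1A1 without 50 nM replicate 1. Between the concentrations MYC lost the call without 250 nM replicate 2 (adjusted p = 0.0626). On log2(FPKM + 1) calls including those of TGFBI, MRTFA, F3, TGFBR2, COL1A1, COL1A2 and ID1 at 50 nM were lost (limma adjusted p of 0.0554 to 0.358), as were those of COL1A1, SDC4, FOS and EDN1 at 250 nM (0.0744 to 0.373). In a fit of only the 50 nM and control libraries TGFBI, MRTFA, F3, TGFBR2, COL1A1 and COL1A2 did not pass (edgeR adjusted p of 0.0506 to 0.10).

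**Figure D4:**
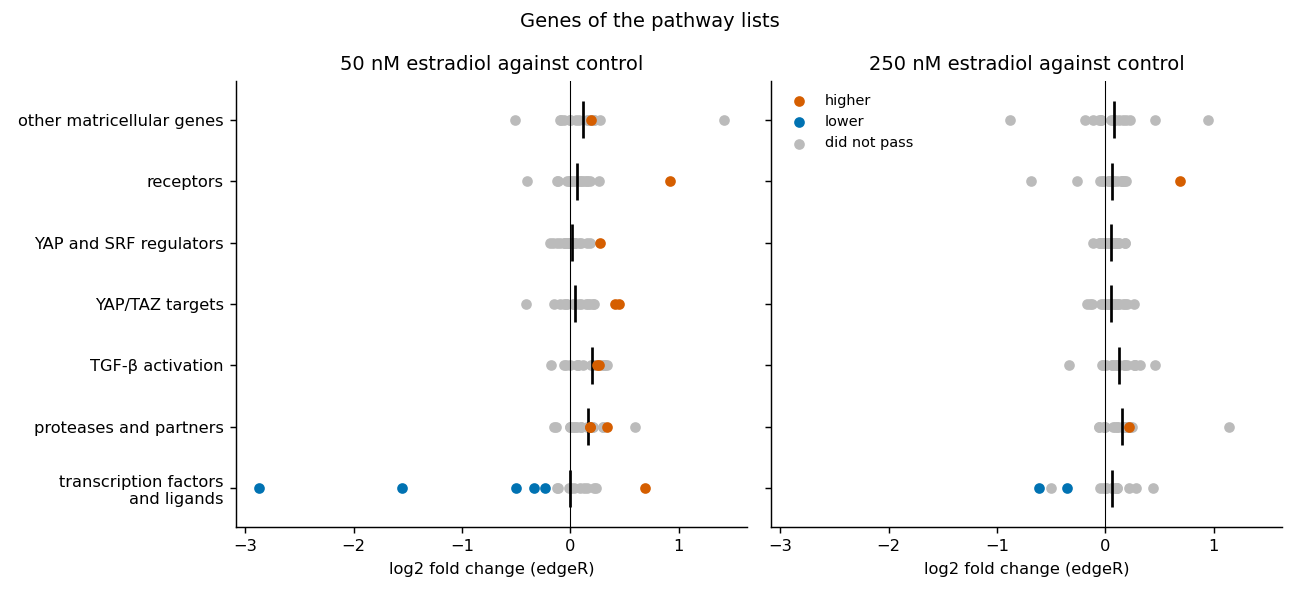
Log2 fold change of each tested gene of 7 lists, for 50 nM and 250 nM against control. Each point is a gene, coloured where its edgeR adjusted p was under 0.05, and the black bar is the list's median. At 50 nM the points furthest to the left are EGR1 (-2.87) and FOS (-1.55), and SDC4 (0.92) is the coloured point furthest to the right.

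The genes whose pattern over the 9 libraries was most like that of each chosen member were found by the root mean square difference between log2 CPM values, each gene centred on its own mean, among 7594 genes with a symbol and at least 5 CPM. Nearest to CYR61 were SGO2, a protector of centromeric cohesion (difference 0.073), RNF169 (0.092), PRR14L (0.094), MAP3K12 (0.095) and the MAP kinase phosphatase gene DUSP1 (0.097). SGO2 averaged 22.1 ± 2.18 CPM in controls, 13.3 ± 0.281 CPM at 50 nM and 17.6 ± 1.64 CPM at 250 nM (SD, n = 3 each), so it took the order of CYR61 at a far lower level. Of the members, CTGF, the other abundant CCN gene, was the nearest to CYR61, in place 1112 at 0.266. WISP1 followed in place 5111 at 0.337.

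Nearest to THBS1 were the chromatin remodeller gene CHD7 (0.067), the transcription factor gene ETV5 (0.070), ARHGEF3 (0.070), SAMSN1 (0.072) and TSC22D2 (0.073). CHD7 had 40.6, 45.1 and 44.0 CPM in controls, 59.7, 65.6 and 56.5 CPM at 50 nM and 49.5, 52.6 and 50.0 CPM at 250 nM. Of the members, THBS2 was the nearest to THBS1, in place 234 at 0.145, followed by SPARC in place 954 at 0.184 and TNC in place 1534 at 0.200. The measure takes in spread between libraries as well as differences between groups. SPARC came before TNC although its log2 fold change at 50 nM was 0.09 and that of TNC was 0.35. CYR61 was in place 7577, near the far end of the order, at 0.511. These genes were ranked by likeness to values already chosen, over libraries that the genes share.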

How the data were processed

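mRNA of 9 HA-VSMC libraries was measured, 3 per group, grouped by sample title. For each gene the authors deposited an estimated count and an FPKM value in every library. Per the submitters' processing notes, Trim Galore, TopHat2 2.1.1, Cufflinks and Cuffdiff were used, in no stated role. The build, annotation and strand setting were not given in the sources used here, so genes that overlap or resemble each other could share counts. The deposited counts are whole numbers whose low values pile up at 4, 8 and 12, so about 4 units stand for 1 fragment. No rounding was needed. All columns were matched to samples by name.

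Counts were filtered with filterByExpr (minimum count 10) and tested with edgeR 4.0.16 in R 4.3.3 (quasi-likelihood test, TMM factors, all 9 libraries), with Benjamini-Hochberg adjustment over all 12324 genes at 0.05. The method was also run on data simulated from its own fit. Those lack the clumping of about 4 units per fragment, so that run does not show how the test does on these counts. Replicates differed beyond sampling noise and were kept apart. Members, gene lists and alternatives were chosen with earlier results of these data known. Text genes are all members, up to 5 called genes per list, and the 5 genes most like CYR61 or THBS1; others are said to be chosen after their values were seen. Alternatives used DESeq2 1.42.0, limma 3.58.1 and the FPKM values. Promoter and protein sequences were not used here, and 1 called list gene is not reported here.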

Additional observations from a re-analysis of the deposited data

How the results depend on the processing

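Each result was recomputed in 21 settings, 9 of which left out 1 library. For CYR61 and THBS1 every value kept its sign and stayed within 1 SD of the replicates in all of them. For the 9 fits without 1 library that limit was fixed in advance. With 3 libraries per group, leaving out 1 cannot move a mean further, so staying within it tells nothing. Of 1386 other values for 22 genes, 92 lost a call, 23 gained one and 0 changed sign with a call. The cause was not tested. At 50 nM against control 401 genes were called (191 higher, 210 lower). The count was 702 with DESeq2, 244 with only those 2 groups (115 higher, 129 lower) and 234 on log2(FPKM + 1) with no filter (77 higher, 157 lower). With the filter it was 308 on log2(FPKM + 1) (85 higher, 223 lower) and 324 on log2(FPKM + 0.1) (88 higher, 236 lower), where the median of all genes was -0.04 and -0.05. It ran from 187 to 564 without 1 library. It was 255, 213 and 211 without control replicate 2, 50 nM replicate 1 and 50 nM replicate 2, and 187 without control replicate 3. Among the list genes 16 were called (11 higher, 5 lower), against 30 with DESeq2 (24 higher, 6 lower), 9 with only 2 groups, 9 on log2(FPKM + 1), 9 on log2(FPKM + 0.1) (each FPKM scale 3 higher, 6 lower) and 8 on log2(FPKM + 1) with no filter. Without 1 library it was 10 to 30, the lowest without control replicate 3 or 50 nM replicate 2 and the highest without 50 nM replicate 3 (25 higher, 5 lower).

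At 250 nM against control 38 genes were called, 140 with DESeq2 (77 higher, 63 lower), 4 on each FPKM scale, and 5 to 56 without 1 library. It was 21, 25 and 15 without control replicates 1, 2 and 3, and 25, 13 and 5 without 250 nM replicates 1, 2 and 3. Among the list genes 4 were called, 11 with DESeq2, 0 on each FPKM scale, and 0 to 5 without 1 library: 1 when control replicate 1 or 3 or 250 nM replicate 2 was left out, 2 when 250 nM replicate 1 was, and 0 when 250 nM replicate 3 was. For 250 nM against 50 nM 40 genes were called, 99 with DESeq2, 23 on log2(FPKM + 1), 26 on log2(FPKM + 0.1), 11 on log2(FPKM + 1) with no filter, and 21 to 50 without 1 library, with 23 and 21 without 250 nM replicates 1 and 2. Among the list genes 6 were called, and 3 on log2(FPKM + 1) with no filter. On the FPKM scales the constant added before the log makes a fold change understate the change of low genes. The calls lost on these scales at 50 nM included abundant genes. Among them were TGFBI, COL1A1 and COL1A2, at means of 2237, 2076 and 2961 FPKM, and the cause was not tested.

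The replicate numbers are shared between groups. Over all genes, same-numbered libraries did not deviate together (correlation across genes of -0.03 to 0.04, against -0.08 to 0.07 for other numbers). Of 18 nearest matches, each among the 3 libraries of another group, 8 had the same number. A correlation over all genes cannot exclude a shared effect in part of them. A replicate block gave 492, 43 and 42 genes in the 3 comparisons (50 nM and 250 nM against control, then 250 nM against 50 nM), and 23, 7 and 6 list genes. With it THBS2 passed at 50 nM. WISP1 and THBS3 had few fragments, but their spread at 50 nM (coefficients of variation of 15% and 29.6%) exceeded counting error. NOV was at or near 0.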
